A study of Mus musculus with 3 samples.

Results

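The sharp-summit Yap1 regions were stretches of the mouse heart genome whose highest ChIP signal stood far above their average signal. A region was taken when it was shorter than 8000 bp and when its maximum signal was at least 3.5 times its average signal in the sham library and again in the library made after aortic constriction. This held for 420 of the 22020 regions, and 20985 others were also under 8000 bp. The ratio of maximum to average is called sharpness below. The regions were chosen by their maximum signal, average signal and length, so these values are given as a description.

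Yap1 is the transcriptional co-activator at the end of the Hippo pathway. It does not bind DNA by itself and is held on chromatin mainly by TEAD factors, which recognise the letters GGAATG, known in cardiac genes as the MCAT element. When the kinases Lats1 and Lats2 are active Yap1 is kept out of the nucleus, and in the adult heart Yap1 has been tied to cardiomyocyte survival and growth under load.

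The chromatin came from whole hearts of wild-type male C57BL/6J mice, taken 7 days after a sham operation or after transverse aortic constriction (TAC), which narrows the aorta and loads the left ventricle with pressure. The series planned 3 mice per operation and holds 1 anti-Yap1 library for sham and 1 for TAC, and the sources used here do not say whether a library pools its mice. With no replicate, a difference between the libraries is a difference between 2 samples and was not tested. Whole-heart chromatin mixes cell types, so a strong site in few cells and a weak site in many cannot be told apart. Intervals in brackets are 95% intervals over regions (Wilson intervals for shares, order-statistic intervals for medians) and leave out variation between mice.

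The letters of the TEAD element can be read directly at the promoters of these regions. RefSeq promoter windows of the GRCm38.p6 build, 300 bases long with 250 bases before the gene start and 50 after, lay wholly inside 191 of the 420 regions. Windows of 45 of these 191 regions held GGAATG on either strand, and in 15 the core sat inside AGGAATGC. These 15 sites are shown because the share with this 8-letter form was higher in sharp-summit regions than in the other regions, as given below. Each stretch is 40 bases long and runs 5′ to 3′ along the strand of its gene, with the 8 letters in capitals. They read AGGAATGC on the gene's strand in 9 genes and as its reverse complement in 6.
Wwc2 (chr8:47990725-47990764, minus strand): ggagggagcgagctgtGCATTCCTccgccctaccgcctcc
Pkp4 (chr2:59161877-59161916, plus strand): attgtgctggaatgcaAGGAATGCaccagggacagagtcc
Man2b2 (chr5:36830648-36830687, minus strand): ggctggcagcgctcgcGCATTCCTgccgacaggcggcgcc
Klhl9 (chr4:88722614-88722653, minus strand): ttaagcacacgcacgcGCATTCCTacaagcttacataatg
Etfb (chr7:43443909-43443948, plus strand): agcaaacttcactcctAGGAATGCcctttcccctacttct
Mdh1 (chr11:21571898-21571937, minus strand): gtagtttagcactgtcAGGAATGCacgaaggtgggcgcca
Itgb1 (chr8:128685630-128685669, plus strand): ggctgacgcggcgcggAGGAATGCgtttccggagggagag
Vkorc1 (chr7:127895711-127895750, minus strand): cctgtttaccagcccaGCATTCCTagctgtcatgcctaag
Ptpn14 (chr1:189728105-189728144, plus strand): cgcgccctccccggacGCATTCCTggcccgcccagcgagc
Akap7 (chr10:25297224-25297263, minus strand): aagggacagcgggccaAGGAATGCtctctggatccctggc
Cfap61 (chr2:145934550-145934589, plus strand): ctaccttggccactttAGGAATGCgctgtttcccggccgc
Otud1 (chr2:19657646-19657685, plus strand): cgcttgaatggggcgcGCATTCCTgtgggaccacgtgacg
Pcyt1a (chr16:32430847-32430886, plus strand): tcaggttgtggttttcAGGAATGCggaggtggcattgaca
Hspb1 (chr5:135887853-135887892, plus strand): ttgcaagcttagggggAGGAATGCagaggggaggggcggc
Rnf187 (chr11:58938959-58938998, minus strand): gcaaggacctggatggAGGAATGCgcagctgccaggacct

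The sites lay from -218 to 24 bases from the gene start. The position of the maximum within a region was not analysed here, so whether a site lies under the summit is not known. Their genes are of mixed function. Wwc2 encodes a WWC family protein that promotes Lats kinase activity, and Ptpn14 a phosphatase that binds Yap1 and restrains it. Itgb1 encodes the beta-1 integrin chain, Pkp4 a plakophilin of cell junctions, and Hspb1 a small heat shock protein. Mdh1 encodes cytosolic malate dehydrogenase, Etfb a subunit of the electron transfer flavoprotein, Vkorc1 the vitamin K epoxide reductase, and Pcyt1a an enzyme of phosphatidylcholine synthesis. The maximum signal of these 15 regions ran from 39 in sham and 19 in TAC at Cfap61 to 208 and 87 at Wwc2. Otud1, a deubiquitinase gene, had 105 in sham and 45 in TAC, Man2b2, a mannosidase gene, 101 and 61, and Pkp4 98 and 69. All 15 were lower in TAC, as were 416 of the 420 sharp-summit regions and 89.4% of all regions, with the smallest difference at Itgb1 (83 and 62, log2 ratio -0.42) and the largest at Wwc2 (-1.25).

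Whole windows are shown for 2 promoters that carry more than 1 core. The Wwc2 window held 3 cores, the most of any sharp-summit promoter window. The window of Ankrd1, a stress-responsive cardiac ankyrin repeat gene and a textbook YAP target, held 2. Each core is in capitals, and CATTCC is the core on the other strand.
Wwc2 (chr8:47990495-47990794, minus strand): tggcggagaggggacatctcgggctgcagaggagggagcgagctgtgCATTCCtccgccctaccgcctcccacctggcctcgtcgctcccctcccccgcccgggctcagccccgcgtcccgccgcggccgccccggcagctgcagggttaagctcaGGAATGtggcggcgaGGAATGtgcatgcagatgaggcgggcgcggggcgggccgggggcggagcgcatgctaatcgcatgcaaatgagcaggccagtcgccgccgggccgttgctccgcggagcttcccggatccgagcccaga
Ankrd1 (chr19:36119795-36120094, minus strand): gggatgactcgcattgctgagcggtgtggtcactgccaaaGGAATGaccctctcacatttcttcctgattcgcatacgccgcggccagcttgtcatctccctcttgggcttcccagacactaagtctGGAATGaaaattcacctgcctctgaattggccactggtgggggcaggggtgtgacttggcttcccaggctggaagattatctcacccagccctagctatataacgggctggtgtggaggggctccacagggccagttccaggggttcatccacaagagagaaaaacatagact

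The TEAD core was found in 23.6% of the 191 sharp-summit regions with a window (18.1 to 30.1%), in 14.8% of 6432 other regions under 8000 bp and in 14.7% of all RefSeq promoter windows. The share of all windows is per window, while the other shares are per region, which held 1.398 windows on average in sharp-summit regions and 1.37 in the others. Per window the core was in 18.4% for sharp-summit regions and 12.3% for the others. A tall summit was set at a mean maximum of both libraries of 51 or more, the sharp-summit median, which held for 110 of the 191 regions and 224 of the others. Among these the core was in 28.2% (20.6 to 37.2%) and 24.1% (19.0 to 30.1%), intervals that overlap. This cut does not match height, as 24 of the 110 but 8 of the 224 had 75 or more. By height class the order of the core shares was mixed. Sharp-summit regions were higher at 30 to 40 (4 of 20 against 267 of 1738) and at 50 to 75 (29.2 against 22.4%). They were lower at 40 to 50 (12.5 against 17.3%) and at 75 or more (6 of 24 against 4 of 8). The 7-letter form GGAATGT, which contains the core, gave 7.85% in sharp-summit regions and 3.73% in the others, and 9.09 and 8.48% among tall ones. AGGAATGC, which also contains the core, was in 7.85% of sharp-summit regions (4.82 to 12.6%) and 1.17% of the others, and per window in 5.99, 0.940 and, over all RefSeq windows, 1.14%. Among tall regions it was in 12 of 110 (10.9%, 6.35 to 18.1%) and 3 of 224 (1.34%, 0.457 to 3.86%). At a mean maximum of 40 to 50 the shares were 1.79% (1 of 56) and 1.81% (11 of 608), and at 50 to 75 they were 8.99% (8 of 89) and 1.57% (4 of 254). This form was picked after the letters around the cores of these same windows had been counted, so its share is a description. Other spellings that were not planned beforehand differed from it. Among tall regions AGGAATGT was in 1.8% of sharp-summit regions (2 of 110) and 3.1% of the others (7 of 224). AGGAATG was in 12.7 and 9.4% of tall regions, and GGAATGC in 15.5 and 6.7%. All 15 regions with AGGAATGC had a CpG island, as did 168 of the 191 sharp-summit regions with a window. Among regions with a CpG island the share was 8.93% (15 of 168) against 0.961% of the others. Without a CpG island it was in none of 23 sharp-summit regions and in 2.03% of the others (25 of 1229).

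By sharpness, taken as the lower of the 2 libraries, the core was in 12.9% of promoter regions below 2 and in 14.1, 16.6, 18.5 and 20.7% of the classes 2 to 2.5, 2.5 to 3, 3 to 3.5 and 3.5 to 4. It reached 28.6% (19.3 to 40.1%) at 4 or more. The 8-letter form AGGAATGC stayed between 0.801 and 1.86% up to a sharpness of 3.5, then was 4.13% and, at 4 or more, 14.3% (10 of 70).

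**Figure D1:**
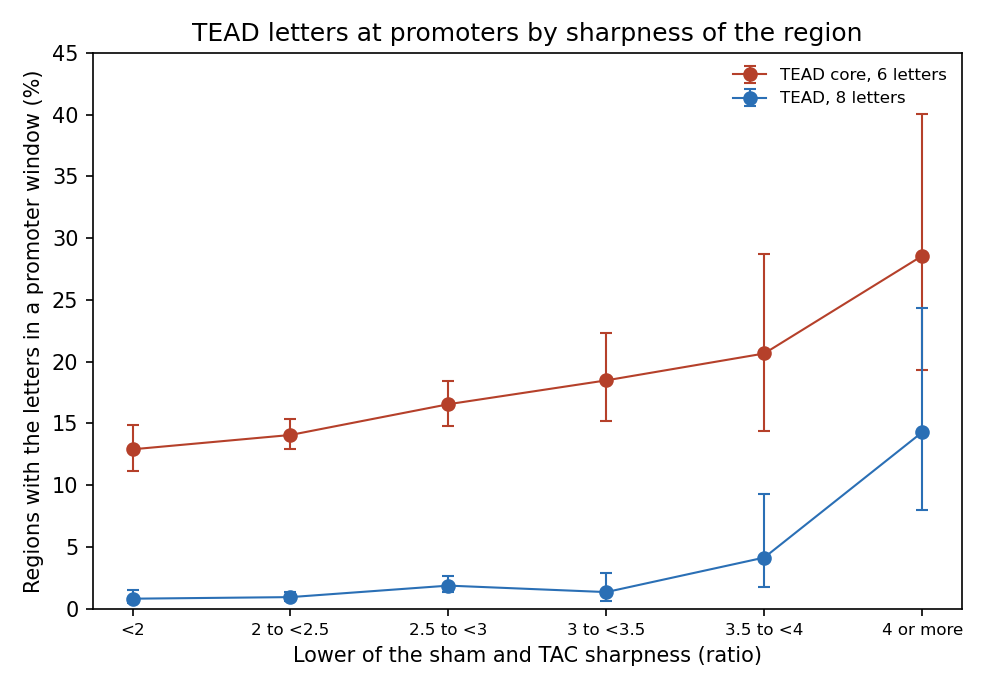
Share of regions (%) whose RefSeq promoter windows held GGAATG (6 letters) or AGGAATGC (8 letters), by class of the lower of the 2 sharpness values; bars are 95% Wilson intervals. The last 2 classes are the sharp-summit regions, and the core share rises from 12.9 to 28.6% along the axis. The classes are not matched for height.

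Letters of other factor families were searched on both strands of the same windows. The shares are given per window for sharp-summit regions, the others and all RefSeq windows, in this order, and then per region among tall regions, sharp-summit first. TGANTCA of AP-1 was in 3.37, 4.98 and 7.81% of windows and in 3.64 and 7.14% of tall regions. AGATAA of GATA factors was in 3.37, 5.91 and 11.2% of windows and in 2.73 and 7.59% of tall regions. CCGGAAG of ETS factors was in 17.98, 20.2 and 8.86% of windows and in 19.1 and 21.9% of tall regions. For both AP-1 and GATA the sharp-summit shares rest on 9 of 191 regions. CCAAT of NF-Y was in 35.6, 37.9 and 37.4% of windows and in 44.5 and 49.6% of tall regions. The SP and KLF box GGGCGG was in 70.0, 64.3 and 35.7% of windows and in 77.3 and 77.2% of tall regions. CACGTG of clock and MYC factors was in 10.1, 10.6 and 7.15% of windows and in 12.7 and 17.4% of tall regions. No difference in these letters was tested, and the box GGGCGG had nearly the same share in both sets of tall regions. The CRE letters TGACGTCA were in 4.12, 3.37 and 1.79% of windows and in 7.27 and 3.57% of tall regions. The MEF2 letters were in 1.498, 3.34 and 3.69% of windows and in 0.909 and 4.91% of tall regions. The glucocorticoid response palindrome was in 0 of 191 sharp-summit regions (upper limit 1.97%), in 2 of 6432 others and in 0.00913% of all RefSeq windows. These letters are rare in promoter windows, so their absence here says little. Mean GC content of the windows was 62.6% for sharp-summit regions, 61.1% for the others and 53.8% for all RefSeq windows.

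The summits were tall and the flanks long. Maximum signal had a median of 62 in sham (23 to 242) and 40 in TAC (19 to 159), in the deposited units, against 24 and 17 in the other regions under 8000 bp. Average signal had a median of 15.3 in sham and 9.51 in TAC. Sharpness had a median of 3.97 in sham and 4.11 in TAC, with highest values of 6.85 and 7.43, against 2.28 and 2.29 elsewhere. The median length was 4338.5 bp (1206 to 7943), against 2055 bp in the others. Length divided by sharpness, the width a block of the summit's height would need to hold the same signal, had a median of 1041 bp in sham and 1006 bp in TAC, against 906 and 899 bp in the others. This width is built from the values that chose the regions, and it is given as a description of what the word sharp stands for here.

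Sharpness went with height and length. Sharp-summit regions made up 0.140% of regions under 2000 bp, 1.14% from 2000 to 3000 bp and 11.7% from 6000 to 8000 bp. They made up 1.63% of regions with a mean maximum of 30 to 40, 12.7% from 40 to 50, 35.1% from 50 to 75 and 85.0% (51 of 60) from 75 upwards. Most were merged from 2 called intervals (356 of 420, 84.8%), as were 40.9% of the others. A single interval was counted at 18 sharp-summit regions, the same number that were called in only 1 library. A count of 2 can thus be 1 call per library and does not show 2 adjacent peaks.

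**Figure D2:**
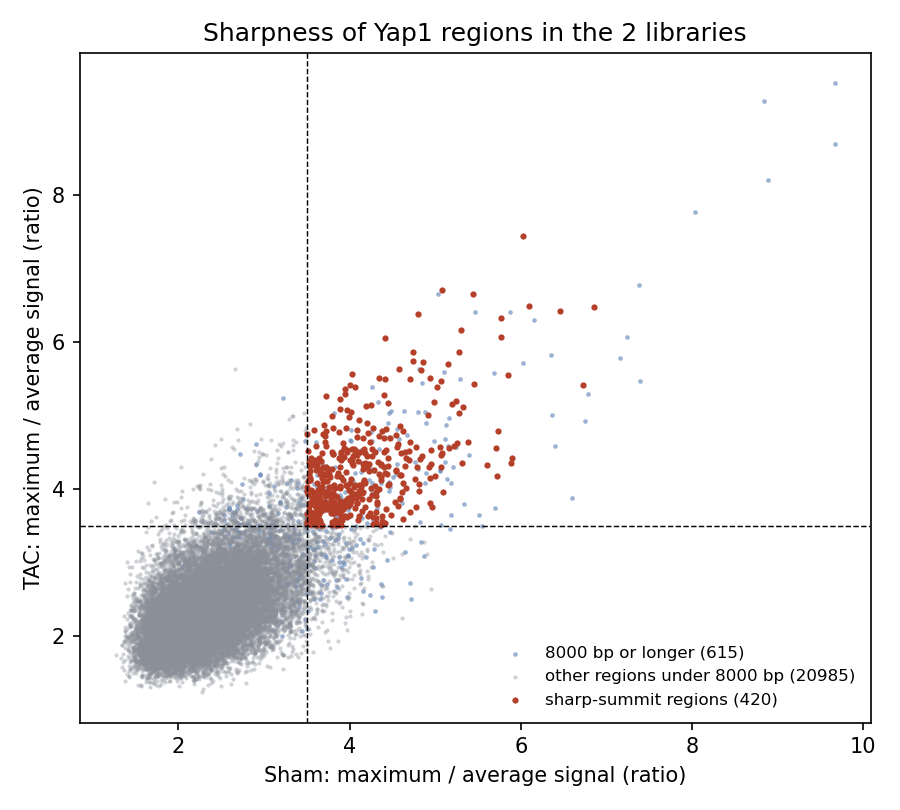
Sharpness (maximum divided by average signal, a ratio) of every region in sham (horizontal) and TAC (vertical); each point is 1 region, and dashed lines mark 3.5. The 420 sharp-summit regions fill the upper right corner, which they share with 140 regions of 8000 bp or more.

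Of 793 regions under 8000 bp past the threshold in sham, 420 (53.0%) were also past it in TAC, and these were 42.9% of the 979 past it in TAC. Regions under 8000 bp numbered 21405 in all, and the overlap was not compared at similar height. Across all regions the rank correlation of sharpness between the libraries was 0.53, over regions that share the 2 libraries. Just inside the threshold, the lower sharpness was 3.5, to 2 decimals, at the regions of Kptn, Man1c1 and Abl1. Just outside, it was 3.499 at Atp5b, 3.498 at Itgb6 and 3.4965 at Ndufv1.

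The 2 libraries both carried a call mark at 402 sharp-summit regions (95.7%, 93.3 to 97.3%), where 45.3% of all regions had both marks. At similar height the shares were close, with 99.5% of sharp-summit regions and 97.7% of the others at a mean maximum of 50 to 75, and 93.3 and 93.5% at 40 to 50. Another 15 were marked in sham only and 3 in TAC only. A missing mark did not always go with a low signal: the Klf13 region was marked in TAC only, with a maximum of 162 in sham and 103 in TAC.

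By the lower of the 2 libraries, the sharpest of the 420 regions had no listed gene. It spans chr9:102776928-102782536 (mm10), 43510 bp from Amotl2, which encodes an angiomotin that holds Yap1 in the cytoplasm. Its maximum was 183 in sham and 105 in TAC and its sharpness 6.85 and 6.48. The region listed to Amotl2 itself was past both thresholds but is 21275 bp long and so was not taken.

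Next came a region over the start of Htra2, a mitochondrial protease gene, and Aup1, a lipid droplet and endoplasmic reticulum gene (maximum 183 in sham and 107 in TAC, sharpness 6.46 and 6.42). A region at Arrdc2, also listed to Il12rb1 and Kcnn1, had a maximum of 103 in sham and 69 in TAC. The region at Hexim1, whose product inhibits the elongation factor P-TEFb, had 172 in sham and 159 in TAC, and its TAC sharpness of 7.43 was the highest among these regions. The Wwc2 promoter region had 208 in sham and 87 in TAC. Inside genes, Klf13, a Krüppel-like factor gene, had its summit region 42103 bp from the start, and Mylk, the gene of myosin light chain kinase, had 67 in sham and 57 in TAC at 122360 bp. The other 3 of the 10 sharpest had no listed gene. Their nearest RefSeq protein-coding genes were Rbpms (61083 bp away), Pabpc6 (220944 bp) and Ktn1 (11641 bp).

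By height, the strongest was the promoter region of Dynll1, a dynein light chain gene, with 242 in sham and 109 in TAC. Nfat5, the gene of the osmotic stress factor, had 166 and 75. The region shared by Cd151, Polr2l and Tspan4 had 150 and 84. In these 3 regions, as in nearly all, sham was the higher library.

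Sharp-summit regions were counted to a promoter in 228 of 420 cases (54.3%, 49.5 to 59.0%), against 43.9% of the other regions under 8000 bp. They lay in a gene away from a promoter in 101 (24.0%, 20.2 to 28.4%, against 34.3%), had no listed gene in 77 (18.3% against 16.9%), and lay upstream of a gene in 4 and downstream in 10. A CpG island was counted to 213 (50.7%, 45.9 to 55.5%, against 35.4%). The promoter mark is wider than the gene start. Among 97 sharp-summit promoter regions with 1 listed gene, the listed distance to its start was over 1000 bp at 44 (45.4%). These distances ran from -8230 to 3806 bp.

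Compared at similar height, the promoter share turned the other way. At a mean maximum of 30 to 40, 41.7% of 48 sharp-summit regions and 71.5% of 2903 others were promoters. The shares were 51.5% of 134 and 79.6% of 925 at 40 to 50, and 57.3% of 185 and 88.3% of 342 at 50 to 75. From 75 upwards they were 60.8% of 51 and 100% of 9. CpG islands followed the same order, for example 55.1 and 84.8% at 50 to 75, and regions with no listed gene the reverse (16.2 and 4.68%). In all 4 classes the promoter and CpG island shares were lower, and the share with no listed gene higher, for sharp-summit regions than for the others, with no test of the difference. Promoters with no CpG island made up 34 of the 420 (8.10%, against 11.1% of the others), and CpG islands away from a promoter 19. By length, the promoter share of sharp-summit regions was the higher in 5 of 6 classes, the exception being 5000 to 6000 bp (43.9 and 45.5%).

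**Figure D3:**
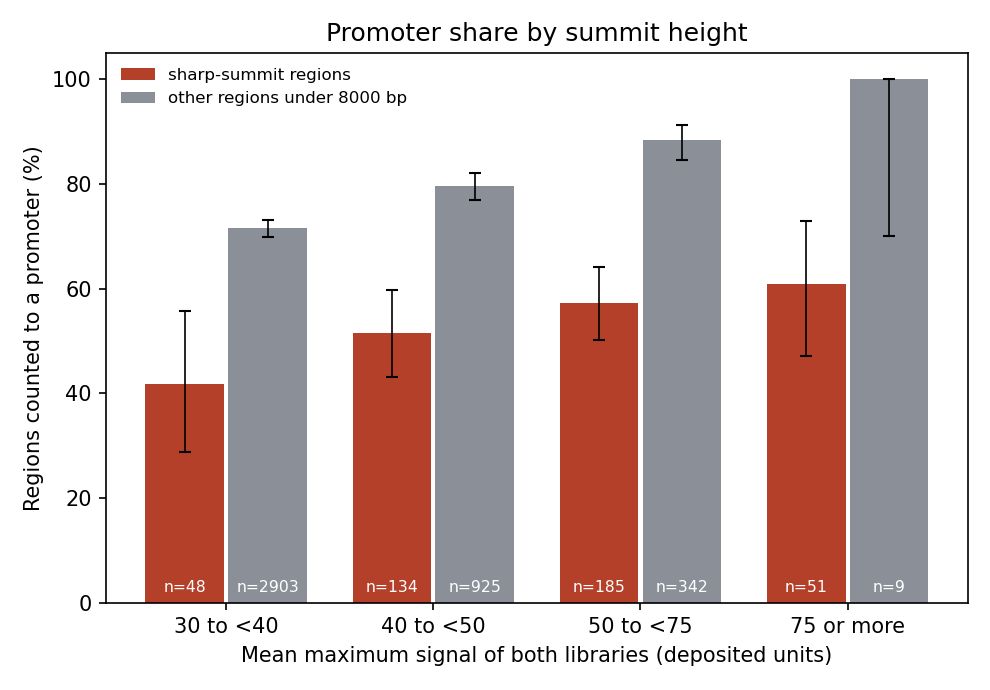
Share of regions (%) counted to a promoter, by mean maximum signal of both libraries (deposited units), for sharp-summit regions and the other regions under 8000 bp; error bars are 95% Wilson intervals and n is the number of regions. Sharp-summit regions sit lower in each of the 4 classes, and the class below 30, with 2 sharp-summit regions, is left out.

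The 77 regions with no listed gene lay at a median of 36255 bp from the nearest RefSeq protein-coding gene, 9 of them inside a gene body of that table and 16 beyond 100 kb. Examples chosen after their values were seen follow. A region 13342 bp from Klf15, a Krüppel-like factor gene known to restrain cardiac growth, had a maximum of 115 in sham and 61 in TAC. One 117455 bp from Klf4 had 66 and 49, and one 255089 bp from Klf6 had 99 and 79. A region 140627 bp from Irf2bp2, a co-repressor gene, had 141 and 69, and another at 18401 bp had 83 and 44. Being nearest does not show that a region acts on that gene. Among the 96 regions inside a single listed gene, the median distance to its start was 57470 bp, and 73 (76.0%) lay 20 kb or more inside, against 73.9% of the others.

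Sharp-summit regions lay on all autosomes, from 1.13% of the regions of chromosome 14 to 2.81% of those of chromosome 7. On X they were 1 of 284 regions. There were 27 neighbouring pairs within 100 kb of each other.

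Of the 557 genes listed to sharp-summit regions, 10 had 2 such regions, the most any gene had. They include genes of the cardiomyocyte membrane. Cacna1c, the pore subunit of the L-type calcium channel, had maxima of 63 in sham and 33 in TAC in the promoter region it shares with Dcp1b and 47 and 26 at 56731 bp. Cacnb2, the beta subunit of that channel, had 69 and 40 at 219352 bp and 42 and 26 at 232145 bp.

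Corin, the gene of the protease that activates natriuretic propeptides, had 58 and 22 in one region and 40 and 25 in the other. Ptpn14 had 80 in sham and 49 in TAC at its promoter, and 59 and 50 at 138586 bp. Smad6, an inhibitory Smad gene, had 55 and 47, and 49 and 36. Hipk3, Pde4dip, Stard13 and Epc1 also had 2.

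Of all 13464 genes with a listed region, 557 (4.14%, 3.81 to 4.49%) had a sharp-summit one, and each gene group is read beside that share. The groups were not matched to all genes for height or number of regions, and no difference from that share was tested. Among 21 YAP and TEAD target genes with a region, 2 had a sharp-summit one: Ankrd1, with 51 in sham and 39 in TAC, and Ptpn14. Another 4 passed both thresholds in regions of 8000 bp or more, namely Amotl2, Cyr61, Dlc1 and Arhgef17. Of the 615 regions of that length, listed to any gene or none, 140 passed both thresholds. The share of all genes with such a region was not computed. Ctgf, the classic YAP target, missed the threshold with a sharpness of 3.53 in sham and 3.25 in TAC. Among 24 Hippo pathway and TEAD genes none had a sharp-summit region, and Vgll4, a TEAD cofactor that competes with Yap1, passed both thresholds in a region of 12692 bp with a lower sharpness of 7.77. The length limit thus leaves out several of the sharpest regions of this pathway. The median over genes of the sharpest region was 2.78 for the YAP and TEAD targets, 2.60 for the Hippo genes and 2.42 for all genes. A gene with more regions has more chances of a sharp one, from 1 region at Ctgf to 20 at Dlc1. These medians were not matched for that number or for height, and their difference was not tested.

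Heat shock and chaperone genes had 6 of 18 (33.3%, 16.3 to 56.3%). They were Hspb1 and Cryab, genes of small heat shock proteins abundant in muscle, Dnajb1 and Dnajb4, which encode Hsp40 partners of Hsp70, Hsp90aa1, and Bag3, a co-chaperone gene needed for sarcomere upkeep. Hspb1 had a maximum of 78 in sham and 44 in TAC, Dnajb1 86 and 61, Cryab 82 and 55 and Bag3 70 and 45. Dnajb4 had 75 and 39 and Hsp90aa1 55 and 43. All 6 regions were counted to a promoter.

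Fatty acid oxidation genes had 5 of 22. Ppara, the nuclear receptor that drives this programme, had 79 in sham and 38 in TAC, Hadha and Hadhb shared 1 region with 58 and 35, and the fatty acid transporter Cd36 had 54 and 31. Esrra lay in a region listed to 5 genes, with 51 and 26. Calcium handling and channel genes had 4 of 22, among them Cacna1c, Cacnb2 and Jph2, a junctophilin gene, with 57 and 28. Growth factor and PI3K signalling genes had 4 of 20: Erbb2 (46 and 29), Hbegf (48 and 47), Pik3r1 (59 and 45) and Foxo3 (56 and 35).

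TGF-beta and BMP genes had 3 of 23, the inhibitory Smads Smad6 and Smad7 (75 and 46) and the receptor Bmpr1a. Sarcomere and Z-disc genes had 3 of 28: Actn2, the Z-disc alpha-actinin (74 and 52), Pdlim5 (57 and 27) and Cryab. Cardiac transcription factors had 2 of 16, Myocd, the SRF co-activator gene (61 and 42), and Prdm16 (69 and 38). Hypertrophic and fetal genes had 2 of 11, Ankrd1 and Rcan1, a calcineurin regulator (49 and 41). Actin and focal adhesion genes had 2 of 26, Itgb1 (83 and 62) and Actn4 (55 and 34), and AP-1 and immediate early genes 2 of 28, Maff and Egr1. Housekeeping genes had 2 of 15, among them Polr2a (74 and 51). Glucocorticoid-responsive genes had 1 of 16, Zbtb16, and clock genes 1 of 17, Bhlhe40. Matrix and fibrosis genes (14 with a region) and cell cycle genes (20) had none.

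All 10 cardiomyocyte markers had a Yap1 region, as did 7 of 7 endothelial, 5 of 7 smooth muscle, 3 of 6 fibroblast, 2 of 6 macrophage, 2 of 6 hepatocyte and 2 of 6 neuronal markers. The share of all mouse genes with a region was not computed, so these counts do not rank the cell types. No marker of any of these types had a sharp-summit region. Of all genes with a listed region 4.14% had one, so with so few markers their absence says little. Of 276 regions listed to microRNA genes 6 were sharp-summit ones (2.17%), near the 1.91% of all regions. The strongest lay by the let-7 cluster of Mirlet7d, Mirlet7f-1 and Mirlet7a-1 (98 in sham and 57 in TAC), and another by Mir1a-1 and Mir133a-2, the muscle microRNAs (61 and 34).

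Summit signal was lower in TAC at 416 of the 420 sharp-summit regions (99.05%), where 89.4% of all regions were lower. It was equal at 1 and higher at 3, against 8.06% of all regions higher. As log2((TAC + 1)/(sham + 1)), the median ratio was -0.67 for the summit (-0.71 to -0.63) and -0.65 for the average (-0.69 to -0.63). Over all regions it was -0.55 and -0.54, and the sharp-summit median minus that of all regions was -0.12 for both measures. The scale between the libraries is not known, and its part in these ratios was not tested. In all, 263 (62.6%, 57.9 to 67.1%) were at least 1.5-fold lower at the summit, against 47.6% of all regions, and 1 was at least 1.5-fold higher, against 0.963%. With ratios centred on the all-region median, 24 (5.71%) were at least 1.5-fold lower and 2 (0.476%) higher, against 7.55 and 8.02% of all regions. The maxima of both libraries were used to choose the regions, so nothing is read from these counts.

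The further drop of the median was not seen at every height. At a mean maximum of 30 to 40 the median ratio was -0.68 for sharp-summit regions and -0.58 for the others, at 40 to 50 -0.67 and -0.63, at 50 to 75 -0.63 and -0.69, and from 75 upwards -0.73 and -0.70. By place it was -0.64 at promoters (-0.70 to -0.60), -0.71 in genes (-0.78 to -0.66) and -0.66 with no listed gene (-0.76 to -0.59), intervals that overlap. The sharpness itself was higher in TAC at 242 of the 420 (57.6%, 52.8 to 62.3%), against 52.1% of all regions. Both sharpness values were used to choose the regions, so this is a description.

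**Figure D4:**
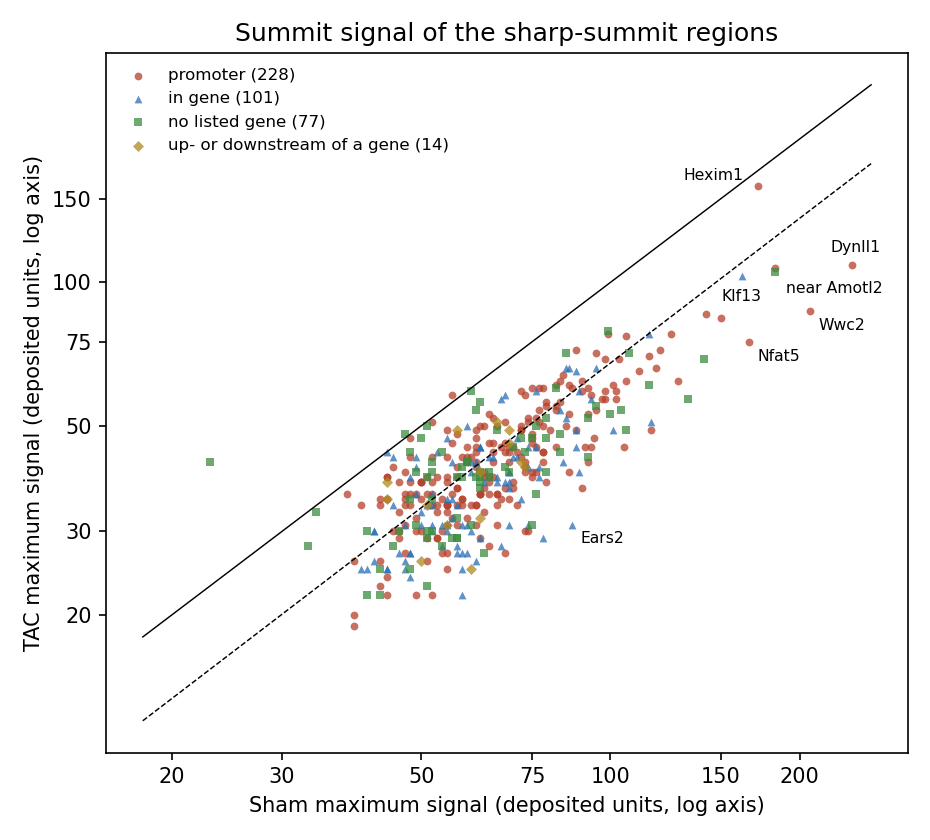
Maximum signal in sham (horizontal) and TAC (vertical) for the 420 sharp-summit regions, both in deposited units on log axes; each point is 1 region, marked by place. The solid line is equal signal and the dashed line the median ratio of all regions; 416 points lie below the solid line, with Hexim1 just under it and Dynll1, Wwc2, Nfat5 and Ears2 below the dashed one.

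Single regions spread widely around this median. Among regions at or above the median height, the highest ratio was at Map3k6, a kinase gene, with 56 in sham and 58 in TAC (0.05). A region with no listed gene on chromosome 13 had 60 and 59, the Zzz3 promoter region 52 and 51 (-0.03), and Hexim1 172 and 159 (-0.11). The lowest ratio was at Ears2, the gene of mitochondrial glutamyl-tRNA synthetase, with 87 in sham and 31 in TAC (-1.46). Epb4.1l4a had 78 and 29 (-1.40), the calpain subunit gene Capns1 74 and 30 (-1.27), U2surp 90 and 37 (-1.26) and Bmpr1a 73 and 30 (-1.26). The only region at least 1.5-fold higher in TAC spans chr8:64880350-64881556 (mm10), has no listed gene and, at 1206 bp, is the shortest sharp-summit region. Its maximum was 23 in sham and 42 in TAC, and it had a call mark in TAC only.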

How the data were processed

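Yap1 ChIP-seq signal was analysed for 1 sham and 1 TAC library of mouse heart. The submitters' processing notes name BWA, MACS 1.4.2 and the mm10 build. The deposited signal, per the file headers, is the average and the maximum within each merged region. The sources used here do not give its scaling, the threshold for peaks or the depth, so depth is unknown, and a depth difference would enter every TAC to sham ratio. The input was not analysed here.

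Sharpness was maximum divided by average. Ratios used a pseudocount of 1, and no p-value was computed because each operation has 1 library. Promoter, CpG island, gene and call marks are the authors'. Gene symbols and promoter windows came from RefSeq (GRCm38.p6); of 557 symbols, 512 were current, 35 synonyms and 10 unmatched. Named regions were the 10 sharpest, the 10 strongest, the 5 highest and 5 lowest ratios, those nearest the threshold, genes with 2 regions and up to 4 per gene list; regions with no listed gene, microRNA regions and motif sites beyond this rule were chosen after their values were seen. A few genes taken by this rule are not reported here. Members, lists and motifs were chosen with earlier results of these data known. Python 3.11.15, pandas 2.3.3, numpy 2.4.6 and SciPy 1.17.1 were used, and the scripts were tested on simulated data.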

Additional observations from a re-analysis of the deposited data

How the results depend on the processing

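No paired analysis was possible because each operation has 1 library. Of 85 values under alternative settings, 54 stayed within their limits and 31 moved. The limits were the bracketed intervals for shares and medians and a 1.5-fold band for counts. Counts and shares cannot change sign, and none of the median ratios did. A setting that kept regions with a mean maximum at or above the all-region median of 21 removed none. The lowest sharp-summit mean maximum was 29, so the values under that setting could not move and say nothing about stability. A sharpness threshold of 3.0 gave 1271 regions, with 60.4% at promoters, 57.0% with a CpG island, 89.3% called in both libraries, 730 at least 1.5-fold lower and a median ratio of average signal of -0.63. A threshold of 4.0 gave 153 regions, with 93 lower, 0 higher and 98.04% called in both. A limit of 5000 bp gave 268 regions with 165 lower. A pseudocount of 1 within sharpness gave 267 regions, with 164 lower, 0 higher and 98.9% called in both. Keeping regions called in both libraries left 0 higher and, by construction, 100% called in both. In the TAC to sham ratio, no pseudocount gave -0.70 for the average, and a pseudocount of 5 gave -0.62 for the summit and -0.51 for the average. Centring on the median of all regions gave -0.12 for summit and average, with 24 lower and 2 higher. Quantile normalization gave -0.041 for the summit and -0.16 for the average, with 15 lower and 9 higher. The longer TEAD letters GGAATGT and, chosen after seeing the data, AGGAATGC were each found in 7.85% of regions in place of 23.6%. The scaling between libraries is the setting that moved the TAC comparison most. Read depth is unknown, and its part in these values was not tested.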
